A study of Rattus norvegicus with 12 samples.

Results

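The genes described here are Gad1, Gad2, Slc32a1 and Slc17a6, 4 of the 32662 genes counted, chosen by their Ensembl rat identifiers. They take part in the making of the transmitter GABA or in the loading of fast transmitters into synaptic vesicles. Poly(A) RNA was sequenced from the trigeminal nucleus caudalis (TNC) and from the spinal cord dorsal horn (SC) of 6 rats, with 1 library per region and rat, 12 in all. All rats were naive males of 10 weeks of age from the Wistar Han strain, an outbred stock. The groups were defined by region and share strain, sex and age, and no group carries a treatment, allele or transgene. The tissue was perfused with saline, frozen, cut at 14 µm, stained and captured by laser microdissection. The TNC, in the caudal medulla, is the relay for nociceptive and thermal afferents of the head, and the dorsal horn for those of the body.

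GABA is the main fast inhibitory transmitter of the adult brain and, together with glycine, of the spinal cord. It is made from glutamate by glutamate decarboxylase, which exists as 2 enzymes encoded by separate genes. Gad1 encodes the form found throughout the cell, and Gad2 the form that is concentrated at nerve terminals. Slc32a1 encodes the vesicular inhibitory amino acid transporter, which loads GABA and glycine into vesicles and is therefore used by both kinds of inhibitory neuron. Slc17a6 encodes a vesicular glutamate transporter that marks most excitatory interneurons of the superficial dorsal horn and its medullary counterpart. In both regions these inhibitory and excitatory interneurons process incoming nociceptive and thermal signals.

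The identifiers are ENSRNOG00000000007 for Gad1, ENSRNOG00000018200 for Gad2, ENSRNOG00000015393 for Slc32a1 and ENSRNOG00000016147 for Slc17a6. Their pairing with the symbols came with the definition of the set. The RefSeq gene table used here (assembly GRCr8) pairs 0 of the 32662 identifiers with a symbol, so this pairing was not checked against it, and the levels of other genes of GABA, glycine and glutamate transmission and of cell type markers were not analysed here. By symbol, RefSeq places Gad1 at chr3:75777260-75818099, Gad2 at chr17:89671718-89734246, Slc32a1 at chr3:167687245-167691714 and Slc17a6 at chr1:110348447-110388499, all on the plus strand of GRCr8. Stretches just before the first annotated base of each gene are shown because 3 of the 4 genes differed between the regions in the same direction, and these are the sequences nearest to where their transcripts begin. They lie at chr3:75777202-75777259 (Gad1), chr17:89671468-89671717 (Gad2), chr3:167686995-167687244 (Slc32a1) and chr1:110348197-110348446 (Slc17a6). Capitals mark matches on either strand to TATAAA (the TATA box), CCGCCC (the GC box) or CANNTG (the E-box), no match overlapping another.
Gad1: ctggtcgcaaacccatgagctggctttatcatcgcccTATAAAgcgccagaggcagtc
Gad2: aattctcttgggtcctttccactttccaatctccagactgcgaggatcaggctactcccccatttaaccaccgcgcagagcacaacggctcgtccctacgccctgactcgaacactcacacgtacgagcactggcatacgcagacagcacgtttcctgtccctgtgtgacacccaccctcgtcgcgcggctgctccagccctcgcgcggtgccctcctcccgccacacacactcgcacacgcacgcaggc
Slc32a1: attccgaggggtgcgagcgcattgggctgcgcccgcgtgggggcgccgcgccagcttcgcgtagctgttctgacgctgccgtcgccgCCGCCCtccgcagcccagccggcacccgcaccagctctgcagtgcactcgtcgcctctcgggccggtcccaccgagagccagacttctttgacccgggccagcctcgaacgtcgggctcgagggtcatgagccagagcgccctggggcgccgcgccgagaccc
Slc17a6: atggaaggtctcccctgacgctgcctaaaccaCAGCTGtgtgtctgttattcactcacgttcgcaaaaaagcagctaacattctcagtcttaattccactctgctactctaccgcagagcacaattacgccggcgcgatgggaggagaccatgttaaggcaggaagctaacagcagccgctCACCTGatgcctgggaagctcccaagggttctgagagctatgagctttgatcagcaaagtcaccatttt
The stretch before Gad1 is short, at 58 bases against 250 for the others, because the start used by the promoter table lies inside the annotated gene. Most of the Gad1 window searched below therefore lies inside the gene. Among the 33469 RefSeq windows of 250 bases searched, 12.9% held TATAAA, 30.5% CCGCCC and 65.5% CANNTG. Gad1 had 1 match to each, of which the TATAAA match lies in the printed stretch, Slc32a1 had 1 match to CCGCCC, Slc17a6 had 2 matches to CANNTG, and Gad2 had none (0) to any of these motifs in its window. The windows of the 3 inhibitory genes were rich in G and C, at 68.4% for Gad1, 62.0% for Gad2 and 73.6% for Slc32a1, against 50.8% for Slc17a6 and a median of 51.2% over all windows. Matches and base composition are descriptions of the reference sequence, and no measurement of these data bears on binding there.

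The libraries held between 11223405 and 14591508 reads on genes, and the 4 genes together took 0.0583% to 0.0659% of them in SC and 0.0676% to 0.0915% in TNC. Levels are given as CPM, reads scaled to a library of fixed size with TMM (trimmed mean of M values) factors, and differences as log2 of TNC over SC. All 4 genes were among the 13833 with enough reads to be tested. Fewer genes were detected in TNC (16449 to 17070) than in SC (17262 to 17536), without overlap. Reads aligned to more than 1 place made up 12.65% to 13.35% in TNC and 13.46% to 13.75% in SC, also without overlap. Neither measure was used as a covariate, so their part in the regional differences was not tested. Alignments outside annotated genes, a measure of library composition, were less frequent in TNC in 6 of 6 rats, with a gap of -0.467 percentage points in rat R102 and of -2.32 to -1.89 in the others. A fit with this share as a covariate beside the rat left 64 of the 13833 genes past the threshold and no member. The log2 difference in that fit was 0.50 for Gad1 (adjusted p 0.358, edgeR), 0.34 for Gad2 (0.564), 0.63 for Slc32a1 (0.495) and -0.31 for Slc17a6 (0.801), against 0.59, 0.59, 0.29 and 0.14 without the covariate. That share moved so closely with region that the variance of the regional difference rose 9.47-fold in the fit, so the part of library composition in the results below cannot be told apart from that of region.

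Gad1, Gad2 and Slc32a1 passed the test as higher in TNC, and Slc17a6 did not. Slc32a1 was not clearly set apart from Slc17a6. Their 95% intervals overlapped, at log2 differences of 0.08 to 0.51 and -0.06 to 0.36 (limma voom). The ratio of Slc32a1 to Slc17a6 was higher in TNC in 3 of 6 rats. Slc32a1 lost its call in 8 of the alternative analyses and kept it in 9. Of those that kept all 6 rats and added no covariate, only upper-quartile scaling lost it. In the covariate fit Gad1 and Gad2 lost their calls too. Of the 4 members, 3 differed at an adjusted p under 0.05, all higher in TNC (quasi-likelihood test of edgeR, blocked by rat, Benjamini-Hochberg adjustment over all genes tested), where 30.3% of all tested genes differed and 15.0% were higher in TNC. The median log2 difference of the 4 members was 0.44, and that of all tested genes was -0.01. The members were chosen with earlier results of these data known, so their shares and median beside those of all genes are descriptions. For Gad1 and Gad2, 2 of the 4, the 6 TNC values all lay above the 6 SC values, which held for 5.07% of all tested genes. In pieces of tissue such as these, more cells of a kind and more RNA per cell cannot be told apart.

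**Figure D1:**
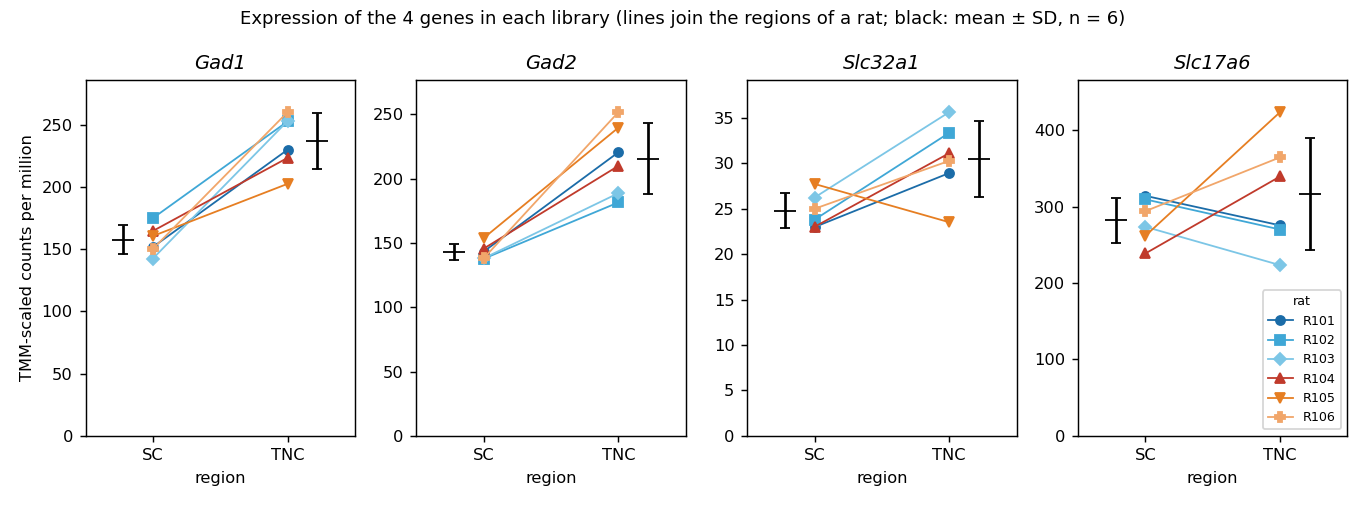
TMM-scaled CPM of the 4 genes in each library, with SC and TNC on the horizontal axis, lines joining the regions of a rat and black bars giving mean ± SD (n = 6). Lines rise in 6 of 6 rats for Gad1 and Gad2 and in 5 for Slc32a1, whereas for Slc17a6 3 rise and 3 fall.

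Gad1, the decarboxylase that supplies most GABA, ranged from 142 CPM to 175 CPM in SC with a median of 156 CPM. In TNC it ranged from 203 CPM to 260.3 CPM with a median of 241 CPM. The ranges did not overlap, and the lowest TNC library was that of rat R105. The means were 157 ± 11.7 CPM in SC and 237 ± 22.2 CPM in TNC (SD, n = 6), from 1656 to 3154 reads per library. Gad1 was thus 1.50-fold higher in TNC, with a log2 difference of 0.59 (standard error 0.08, from the 6 rats) and a 95% interval from 1.37-fold to 1.65-fold (interval from limma voom). The adjusted p was 1.63e-06 (edgeR), and the difference was positive in 6 of 6 rats, from 0.33 in rat R105 to 0.83 in rat R103. A difference positive in 6 of 6 rats was found for 12.9% of all tested genes.

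Gad2, the decarboxylase of the nerve terminal, was uniform in SC and less so in TNC. It ranged from 138 CPM to 154 CPM in SC, with a median of 141 CPM, and from 182 CPM to 252 CPM in TNC, with a median of 215 CPM. No TNC library came down to the SC range, and the TNC libraries of rats R102 and R103 were the lowest. The means were 143 ± 6.32 CPM in SC and 215 ± 27.7 CPM in TNC (SD, n = 6). The coefficient of variation between rats was 4.43% in SC, where counting error alone gives about 2.33%, and 12.9% in TNC. Among the 1896 genes within 2-fold of its level, this placed Gad2 at the 16.0th percentile in SC and at the 85.0th in TNC. The log2 difference was 0.59 with a standard error of 0.07, or 1.50-fold with a 95% interval from 1.38-fold to 1.65-fold (limma voom), and the adjusted p was 1.05e-06 (edgeR). It was positive in 6 of 6 rats, from 0.40 in rat R102 to 0.87 in rat R106.

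The regional differences of both decarboxylase genes had nearly the same mean, but the rats were not ordered alike. The log2 ratio of Gad2 to Gad1 reads within a library averaged -0.14 ± 0.11 in SC (SD, n = 6) and -0.14 ± 0.27 in TNC. The within-rat difference averaged 0.00 with an SD of 0.23. In single rats this difference ran from -0.38 in R103 to 0.30 in R105. Gad1 was the gene with the larger regional difference in rats R102 and R103, and Gad2 in the other 4.

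Slc32a1, which loads GABA and glycine into vesicles, showed a smaller difference and more overlap. It ranged from 23.0 CPM to 27.7 CPM in SC with a median of 24.4 CPM, and from 23.5 CPM to 35.7 CPM in TNC with a median of 30.7 CPM. In 5 of 6 TNC libraries the level was above every SC library, and the exception was rat R105, in which the SC library was the highest of its region and the TNC library the lowest. The means were 24.8 ± 1.91 CPM in SC and 30.5 ± 4.16 CPM in TNC (SD, n = 6), from 284 to 392 reads per library. Slc32a1 was 1.23-fold higher in TNC, with a log2 difference of 0.29, a standard error of 0.11 and a 95% interval from 1.06-fold to 1.42-fold (limma voom). The adjusted p was 0.0342 (edgeR). The within-rat difference was -0.24 in rat R105 and 0.27 to 0.48 in the other 5 rats, and a positive difference in 5 or 6 rats was found for 26.9% of all tested genes. The call was lost when rat R101, R102, R103, R104 or R106 was left out (adjusted p from 0.0676 to 0.0964, edgeR). It was lost also with upper-quartile scaling (0.0563), whereas without rat R105 the log2 difference was 0.39 and the adjusted p 0.00562.

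Relative to the decarboxylases, Slc32a1 was lower in TNC than in SC in 5 of 6 rats. The log2 ratio of its reads to the mean of Gad1 and Gad2 averaged -2.60 ± 0.13 in SC (SD, n = 6) and -2.89 ± 0.24 in TNC. The within-rat difference averaged -0.30 with an SD of 0.29. The difference was 0.02 in rat R102 and reached -0.55 in R106 and -0.73 in R105. This ratio is free of library scaling, and as a value over the members it is given without a test.

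**Figure D2:**
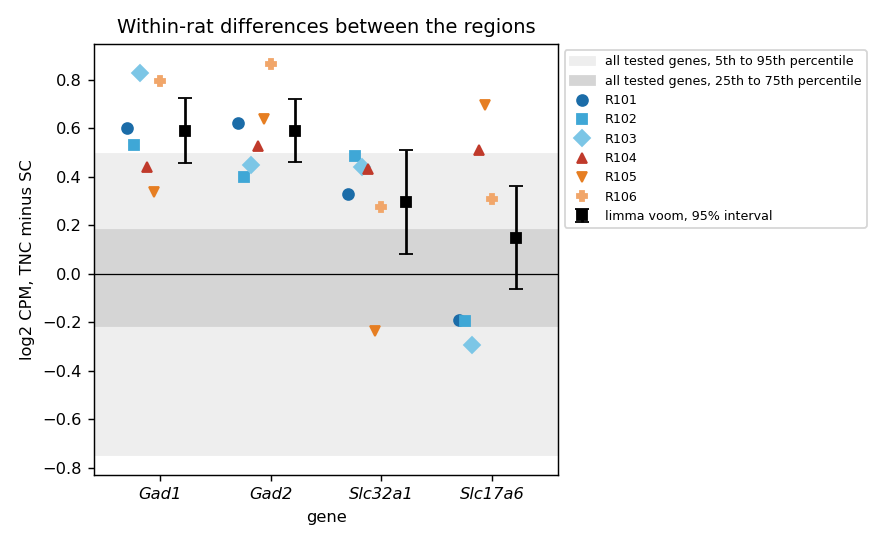
Within-rat differences of log2 CPM, TNC minus SC, for each gene (coloured symbols, 1 per rat), with the limma voom estimate and its 95% interval in black and, shaded, the 5th to 95th and 25th to 75th percentiles of the log2 differences of all 13833 tested genes. The estimates for Gad1 and Gad2 lie above the 95th percentile of all genes (0.49), and the symbols of Slc17a6 fall into a positive and a negative set of 3 rats each.

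Slc17a6, the vesicular glutamate transporter, had no regional difference that passed the test, and its spread between rats was wide. In SC it ranged from 239 CPM to 314 CPM with a median of 284 CPM, and in TNC from 223 CPM to 424 CPM with a median of 307 CPM. The SC range lay inside the TNC range, so both the lowest and the highest of the 12 values were TNC libraries, those of rats R103 and R105. The means were 282 ± 29.3 CPM in SC and 316 ± 73.3 CPM in TNC (SD, n = 6). The log2 difference was 0.14 with a standard error of 0.17 and an adjusted p of 0.302 (edgeR). The 95% interval from limma voom, which moderates the variance of a gene by that of all genes, ran from 0.958-fold to 1.28-fold. It is narrow beside the standard error of the 6 rats. The intervals of Gad1, Gad2 and Slc32a1 were moderated in the same way, so they too do not rest on the spread of each gene alone. The value moved between 0.03 without rat R105 and 0.23 without rat R103, and no rat left out brought it past the threshold.

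The direction of the Slc17a6 difference differed between rats. It was -0.19 in rat R101, -0.20 in R102 and -0.29 in R103, and it was 0.51 in R104, 0.69 in R105 and 0.31 in R106. A negative difference in the first 3 of these rats with a positive one in the last 3 was found for 1.27% of all tested genes, and the reverse for 1.03%. In TNC the level was 223 CPM to 275 CPM in rats R101, R102 and R103 and 339 CPM to 424 CPM in R104, R105 and R106, without overlap, as for 9.20% of all tested genes in this direction. In SC the same sets of rats overlapped, at 274 CPM to 314 CPM and 239 CPM to 294 CPM. The labels give no batch for these rats. The second principal component of the 13829 tested genes other than the members, 10.4% of the variance, parted the same sets in both regions, more widely in TNC. In TNC its scores were -29.6 to -7.29 in R101 to R103 and 19.3 to 22.7 in R104 to R106. In SC they were -12.9 to -4.79 and 0.70 to 4.22. These sets were read from the data, so no test between them is given. Fits within each set appear only among the alternative analyses, and their calls are descriptions.

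The within-rat differences of Slc17a6 had an SD of 0.42 on the log2 scale. Among the 1027 tested genes within 2-fold of its mean level the median SD was 0.13, and Slc17a6 stood at the 99.7th percentile. Its coefficient of variation was 23.2% in TNC, at the 98.8th percentile of the same genes, and 10.4% in SC, at the 88.8th, with about 1.64% and 1.65% from counting error. For Gad1, Gad2 and Slc32a1 the SD of the within-rat differences was 0.19, 0.17 and 0.27, at percentiles 83.8, 70.1 and 62.7 of the genes within 2-fold of each one's level. These percentiles describe the libraries and carry no test.

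**Figure D3:**
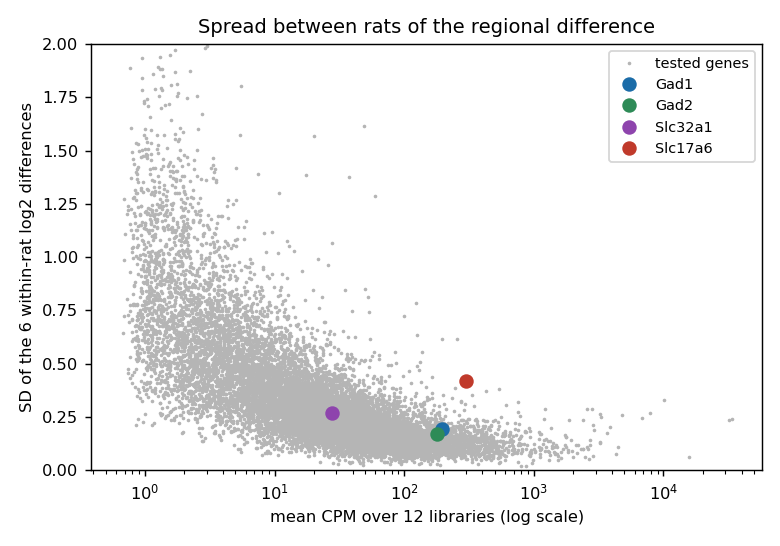
SD of the 6 within-rat log2 differences of each tested gene (grey) against its mean CPM on a log axis, with the 4 members in colour; 19 genes above an SD of 2 are outside the plot. Slc17a6, at 0.42, lies above nearly all genes of its level, and the other 3 members lie within the grey cloud.

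The balance of inhibitory to excitatory message was taken within each library as the mean log2 reads of Gad1, Gad2 and Slc32a1 minus log2 reads of Slc17a6. Slc17a6 was its only excitatory gene, so other vesicular glutamate transporters do not enter it. Reads were not divided by transcript length, so the ratio itself does not compare molecules and its change between libraries is described. It averaged -1.77 ± 0.18 in SC and -1.42 ± 0.38 in TNC (SD, n = 6). The mean within-rat difference was 0.35, or 1.27-fold in favour of the inhibitory genes in TNC, with an SD of 0.51, so it was smaller than the spread between rats. It was positive in 4 of 6 rats. The SC libraries ran from -1.98 to -1.54, inside the TNC range from -2.02 in rat R105 to -0.90 in rat R103.

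The balance spread more widely over the TNC libraries than over the SC libraries, and the sign of its difference varied between rats. The within-rat difference was 0.71 in R101, 0.67 in R102 and 0.87 in R103. It was -0.04 in R104, -0.45 in R105 and 0.34 in R106. With Gad2 alone over Slc17a6 the difference was positive in 5 of 6 rats, with a mean of 0.45 and an SD of 0.37. With Gad1 alone it was positive in 4 of 6 (mean 0.45, SD 0.56), and with Slc32a1 alone in 3 of 6 (mean 0.15, SD 0.64). The 2 vesicular transporters, compared directly, gave the smallest mean and the widest spread of these 3 ratios, from -0.93 in rat R105 to 0.73 in rat R103.

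**Figure D4:**
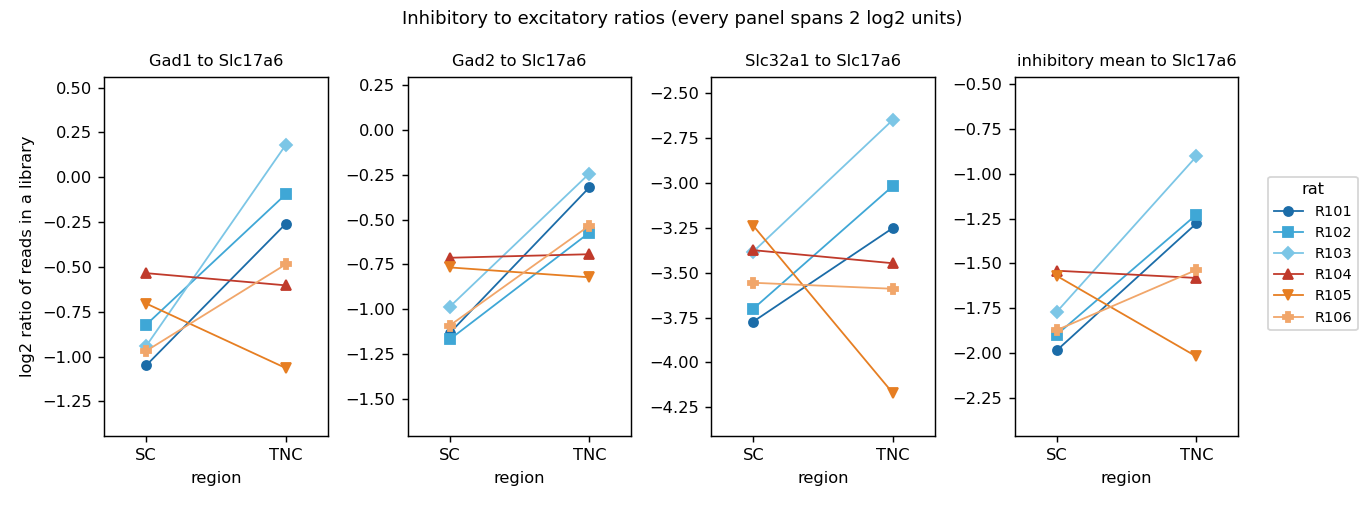
Log2 ratio of reads of each inhibitory gene, and of their mean, to Slc17a6 in every library, with lines joining the regions of a rat and each panel spanning 2 log2 units. The lines of rats R101, R102 and R103 rise in every panel, and that of R105 falls in every panel.

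How the members varied together was examined over the rats within each region, and no relation passed the adjusted threshold. Of 12 relations between 2 members within a region, each over 6 rats, 0 passed after Benjamini-Hochberg adjustment of exact permutation p-values, and 2 had an unadjusted Pearson p under 0.05 and 0 an unadjusted Spearman p under 0.05. In TNC, Slc32a1 and Slc17a6 had a Pearson r of -0.83 (exact permutation p = 0.0389, adjusted 0.267) and a Spearman rho of -0.83 (exact p = 0.0583, adjusted 0.350). Without the 2 rats farthest from the median of Slc32a1, R103 and R105, r was -0.20, so this relation rests on those rats. Gad1 and Slc32a1 had an r of 0.82 (exact permutation p = 0.0458, adjusted 0.267) and a rho of 0.54 (exact p = 0.297, adjusted 0.713), and r was 0.82 without rats R105 and R106. With RLE scaling the rats farthest from the median of Gad1 were R104 and R105, and r without them was 0.54.

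The coefficients of Gad2 in TNC were positive with Slc17a6 and negative with both other inhibitory genes, and these too did not pass the adjusted threshold. Gad2 and Slc17a6 had an r of 0.80 (exact permutation p = 0.0667, adjusted 0.267) and a rho of 0.83 (exact p = 0.0583, adjusted 0.350), and r was 0.87 without rats R102 and R106. Gad2 and Slc32a1 had an r of -0.72 (exact permutation p = 0.0917, adjusted 0.275) and a rho of -0.77 (exact p = 0.103, adjusted 0.411), and r was -0.98 without the same rats. Gad1 and Gad2, which had equal mean differences between the regions, had an r of -0.34 within TNC (exact permutation p = 0.490, adjusted 0.691), a rho of -0.03 (exact p = 1.0, adjusted 1.0) and an r of -0.90 without rats R105 and R106. Gad1 and Slc17a6 had an r of -0.59 (exact permutation p = 0.226, adjusted 0.543), a rho of -0.43 (exact p = 0.419, adjusted 0.719) and an r of -0.82 without the same rats. These last 2 values depend on which rats are left out: with RLE scaling, which leaves out R104 and R105, r was -0.05 for Gad1 and Gad2 and 0.22 for Gad1 and Slc17a6. In SC the 6 relations had r from -0.53 to 0.36 and rho from -0.60 to 0.14, with unadjusted exact permutation p-values of at least 0.296 and 0.242. Values of a library share its scaling factor, and r without 2 rats rests on 4 points.

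**Figure D5:**
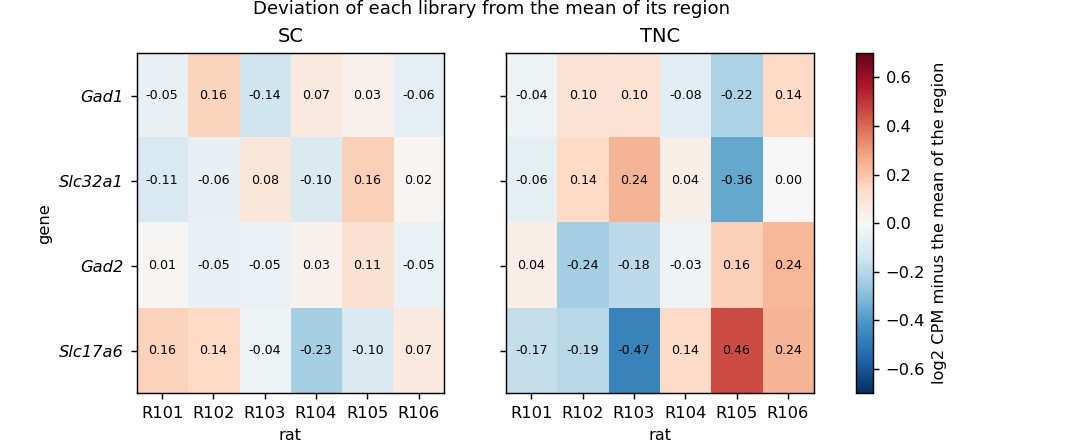
Deviation of log2 CPM from the mean of the region for each gene (rows) and rat (columns), in SC and in TNC; red is above and blue below the mean, on a common scale. In TNC rat R105 is low in Gad1 (-0.22) and Slc32a1 (-0.36) and high in Gad2 (0.16) and Slc17a6 (0.46), and R103 shows the opposite signs.

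Likeness to other genes was measured by the Pearson correlation of log2 CPM over the 12 libraries, among 9539 genes that averaged 10 CPM or more. These correlations hold the regional difference as well as the spread between rats and are given as descriptions. For Slc32a1, Gad1 ranked 70th of 9539 (r = 0.77), whereas Gad2 ranked 1521st (r = 0.48) and Slc17a6 7200th (r = -0.30). For Gad1, Gad2 ranked 274th (r = 0.83) and Slc32a1 545th (r = 0.77). For Gad2, Gad1 ranked 492nd (r = 0.83) and Slc17a6, at 2559th (r = 0.49), stood slightly before Slc32a1, at 2669th (r = 0.48). For Slc17a6 the nearest member was Gad2 at rank 917 (r = 0.49). The gene closest to Gad1 was ENSRNOG00000008010 (r = 0.97), with 62.5 ± 7.42 CPM in SC and 224 ± 31.2 CPM in TNC (SD, n = 6) and an adjusted p of 1.13e-11 (edgeR). The gene closest to Gad2 was ENSRNOG00000049876 (r = 0.96), with 367 ± 15.9 CPM in SC and 472 ± 44.2 CPM in TNC and an adjusted p of 4.87e-05 (edgeR). The gene closest to Slc17a6 was ENSRNOG00000007120 (r = 0.90), with 60.5 ± 2.89 CPM in SC and 68.2 ± 11.8 CPM in TNC, which like Slc17a6 did not pass the test (adjusted p 0.157, edgeR). The files do not pair these identifiers with symbols.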

How the data were processed

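The deposited files, 1 per library, list whole-number read counts by gene without normalization and end in 5 HTSeq summary lines, which entered neither library sizes nor tests. The submitters' processing notes name STAR and HTSeq. Their versions, the strand setting, the build and the annotation release were not given in the sources used here, so reads of overlapping or antisense genes cannot be told apart. Analyses ran in R 4.3.3 with limma 3.58.1, edgeR 4.0.16 and DESeq2 1.42.0.

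Low genes were removed by filterByExpr of edgeR (minimum count 10), libraries were scaled by TMM, and TNC was compared with SC by edgeR's quasi-likelihood test with terms for rat and region in all 12 libraries, Benjamini-Hochberg adjustment over 13833 genes and a threshold of 0.05. Log2 CPM used a prior count of 2. Intervals came from limma voom on the same model. The tests were checked on simulated counts. Titles carry the number of the rat, and both regions were captured from each rat, which gives the pairing. Deviations from the region means correlated at 0.14 to 0.20 between libraries of a rat and at most 0.05 between rats. Libraries of a region differed beyond sampling noise (chi-square per degree of freedom of 6.72 or more), so none was counted as a duplicate. Each rat is 1 animal, and the spread between rats includes that of the capture.

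Ratios of members were taken from reads within a library and, like scores over the members, carry no test. The members, the lists and the alternatives were chosen with earlier results of these data known. Named genes are the 4 members and, for each of 3 members, the gene with the highest correlation over the 12 libraries. The closest gene of Slc32a1 is not named, since at most 2 identifiers without a symbol were printed among genes called higher in TNC. The lists of GABA, glycine and glutamate genes and of cell type markers were not analysed here, for want of symbols. Alternatives were RLE scaling, upper-quartile scaling, a filter of 1 CPM in 6 libraries or none, DESeq2, limma voom, no block, libraries thinned to the smallest total, a covariate for alignments outside genes, 3 rats at a time (R101 to R103, then R104 to R106), and each rat left out.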

Additional observations from a re-analysis of the deposited data

Results flagged for a closer look

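In 38 sets of 6 values, 3 held a value set apart from the rest, against about 5% of sets by chance. Many sets are ratios or differences of the same reads and are not independent, so this count is no test. The within-rat log2 difference of Slc32a1 was -0.24 in rat R105 and 0.27 to 0.48 in the other rats. In SC, 17536 genes were detected in rat R106, whereas the remaining rats had 17262 to 17364. That library also had the most reads on genes of all libraries, 14591508, and the part of depth in its count was not tested. In TNC, the alignments outside annotated genes made up 15.2% in rat R102 and between 12.5% and 13.1% in the remaining rats. Without rat R102, Gad1 and Gad2 had log2 differences of 0.60 and 0.62 and passed the test, and Slc32a1 had 0.25 and did not (adjusted p 0.0964, edgeR).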

How the results depend on the processing

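Gad1 and Gad2 kept sign and call in 16 of their 17 alternatives, and Slc32a1 in 9. The alternatives include the fits in R101 to R103 and in R104 to R106, sets that were read from the data. With the replicate block and the share of alignments outside genes as covariate, the log2 differences were 0.50 for Gad1, 0.34 for Gad2 and 0.63 for Slc32a1, none past the threshold, and -0.31 for Slc17a6, and 64 genes differed in all, with a region term whose variance was inflated 9.47-fold. With no replicate block the log2 differences were 0.59, 0.59, 0.30 and 0.17, no member changed its call, and 3627 genes differed. Slc32a1 was at 0.26 and not past the threshold with upper-quartile scaling. In rats R101 to R103 alone 2308 genes differed and Slc17a6 was at -0.23, and in rats R104 to R106 alone Slc32a1 was at 0.17 and Slc17a6 at 0.51. The signs of Slc17a6 in the single rats fix the direction of both of its values, which are therefore no test. Beyond the smaller number of rats, the cause of these changes was not tested. With each rat left out in turn the log2 differences ran from 0.54 to 0.64 for Gad1, 0.53 to 0.62 for Gad2, 0.25 to 0.39 for Slc32a1 and 0.03 to 0.23 for Slc17a6, and the inhibitory to excitatory ratio from 0.24 to 0.51. Slc32a1 had the lowest read numbers of the members, with a counting error of about 5.30% to 5.60% per library, beside a coefficient of variation between rats of 7.70% in SC and 13.6% in TNC.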
